A study of Mus musculus with 20 samples.

Results

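The genes of the constitutive proteasome were followed in the ageing retina of Nrl-/- mice. They were chosen by name, as all symbols on the array that begin with Psma, Psmb, Psmc or Psmd and a digit, without the inducible immunoproteasome subunits Psmb8, Psmb9 and Psmb10. The rule found 32 of the 15781 genes measured, and 31 of them were bright enough to be tested. By role they were 5 of the 7 alpha ring subunits, 6 of the 7 beta ring subunits and all 6 base ATPases. There were also 2 of the 3 listed non-ATPase base subunits, all 8 lid subunits with a Psmd symbol and 3 assembly chaperones of the base. Psma4, Psma5, Psmb3 and Psmd1 were not analysed here. A pair of the genes found by name stood apart from these roles. Psmb11, the thymus form of a beta subunit, had a mean log2 level of 4.94 over the 20 arrays, under the limit of 5.61 set for testing, and Psmc3ip is a factor of meiotic recombination that shares only the letters.

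The mice were C57Bl/6J animals without Nrl, a transcription factor needed to form rods, whose absence yields a retina of cone-like photoreceptors. All were of this genotype, with no wild-type retina for comparison. Each sample was the pair of retinas of 1 mouse, and 4 mice were taken at each of 1, 2, 4, 6 and 10 months of age. Ribosomal RNA was depleted from total RNA, and labelled cDNA was hybridised to 20 Affymetrix exon arrays, 1 per mouse. The series asks how the cone-only retina changes with age, and each later age was therefore compared with 1 month and with the ages next to it.

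The proteasome degrades proteins tagged with ubiquitin. Its core particle is a barrel of stacked alpha and beta rings, with the proteolytic sites inside the beta rings, and the regulatory particle caps the barrel. The base of that cap holds a ring of ATPases that unfold substrates and thread them into the core, and the lid removes ubiquitin. Photoreceptors make and replace large amounts of protein, and the capacity of the proteasome has long been studied as a limit on their survival. Subunits are needed in fixed proportion, and their genes are known to be induced together when proteasome activity falls short.

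All values are log2 levels per gene, summarised from the probe sets of that gene. Probe sets of a gene share the RNA and the array, so counts of those that agree in sign are not replicates. A gene was called where its adjusted p-value (limma, Benjamini-Hochberg over all 11836 tested genes) was under 0.05, and differences are given as later minus earlier with their standard error. Levels are compared only between ages of the same gene, since probes of different genes differ in brightness. Each array measured the retina as a whole, so fewer cells of a type and less RNA per cell cannot be told apart. The arrays share the overall distribution that normalization gave them, so a change shared by most genes would not be seen.

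Nrl was read at 5.97 to 6.53 on all 20 arrays by 6 probe sets, whose position relative to the deletion is not known here, so it checks no label. The cone genes Opn1sw (13.49 to 13.77) and Arr3 (11.77 to 12.50) were bright on every array. Markers of other cell types changed with age beside the proteasome genes. At 10 months against 1 month 7 of 10 cone markers were called lower (mean of the list 11.48 to 11.57 at 10 months, 11.83 to 11.97 at 1 month) and 7 of 7 Muller glia markers higher (11.10 to 11.30 against 10.62 to 10.74). Of 12 markers of other retinal neurons 6 were called higher and 1 lower, and of 8 blood vessel markers 5 lower and 1 higher. Of 11 microglia and macrophage markers 7 were called higher at 2 months, 4 at 4 months and 0 at 10 months, with 1 higher and 1 lower at 6 months. Over all tested genes 20.6% were called higher and 20.8% lower at 10 months against 1 month. At 2, 4 and 6 months 3.3%, 6.9% and 7.89% of them were called higher. The mean of 9 lens markers was 6.59 to 7.12 at 1 month and 5.92 to 6.14 at 10 months, and the mean of 9 pigment epithelium markers reached 8.24 on 1 array at 10 months, where 3 of the 7 tested were called higher than at 1 month. Y-linked levels were 4.00 to 4.28 on all 2-month arrays and 4.13 and 4.42 on replicates 2 and 3 of 10 months, against 7.33 to 8.28 on the others. A difference of sex and an age of 2 months therefore cannot be told apart. The part of these other signals in the proteasome results was not tested, except where a value without replicates 2 and 3 of 10 months is given. The 4-month replicate 4 and the 10-month replicate 3 had the lowest mean correlation with the other arrays, 0.974 and 0.975.

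The constitutive subunits varied little with age. The range of the 5 age means had a median of 0.16 over the 31 tested members, from 0.05 for Psmd4 to 0.36 for Psma2, while the median over all tested genes was 0.25. The spread between mice of an age was about the same, with a median SD of 0.11 for the members and 0.11 for all genes. The members were bright, with a median mean level of 9.38 against 8.17 for all tested genes. The F test over all 5 ages called 5 of 31 members (16.1%), against 38.4% of all tested genes. These were Psma2 (adjusted p = 0.0088, limma with Benjamini-Hochberg adjustment, as for the others), Psmb1 (0.00565), Psmc4 (0.0284), Psmd8 (0.0375) and Psmd9 (0.0265). Without replicate 2 or without replicate 4 of 10 months the F test called 2 members.

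The 95% interval of every tested member lay within 1.5-fold in either direction for 10 months against 1 month (31 of 31). Over all genes this held for 9565 of 11836. The same count was 31 of 31 in each of the other comparisons except 10 against 4 months, where the interval of Psmc3ip reached past that fold and 30 members lay within it.

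**Figure D1:**
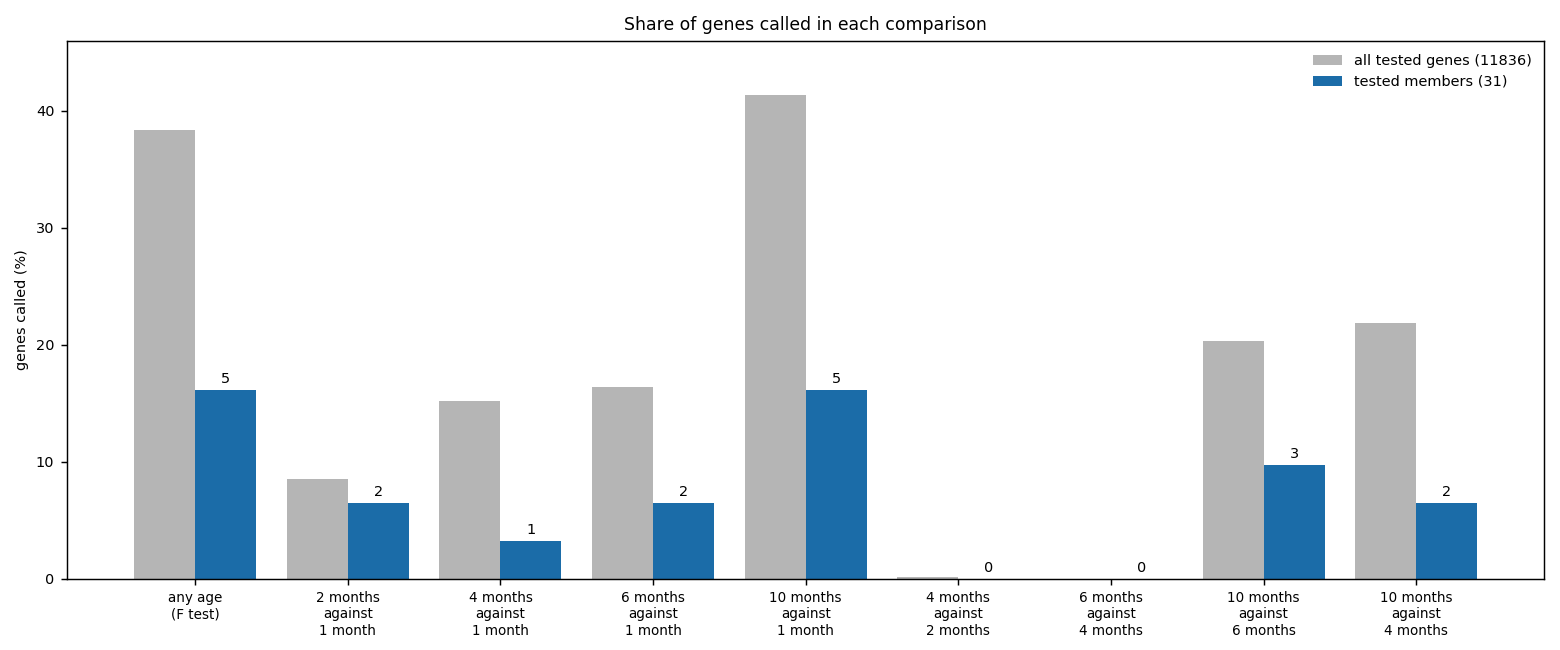
Percent of genes called (limma, adjusted p under 0.05) in the F test over 5 ages and in each of 8 comparisons of 2 ages, for all 11836 tested genes (grey) and the 31 tested members (blue, with the number called above the bar). In each comparison where any gene was called the blue bar is the shorter one, with its highest value, 16.1%, in the F test and at 10 months against 1 month.

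Early change was small. The core subunits Psma2 and Psmb1 rose, and at 6 months the ATPase Psmc4. At 2 months against 1 month 2 of 31 members were called, both higher, against 8.52% of all tested genes (3.3% higher, 5.22% lower). At 4 months 1 member was called, higher, against 15.2% of all genes (6.9% higher, 8.26% lower). At 6 months 2 members were called, both higher, against 16.4% of all genes (7.89% higher, 8.52% lower). All comparisons with 1 month share the 1-month arrays, so calls of a gene at several ages are not independent. Between 2 and 4 months limma called 0 members (0.127% of all genes), with 0 members and 959 of all genes at an unadjusted p under 0.05. Between 4 and 6 months it called 0 members and 0% of all genes, with 1 member and 531 of all genes at p under 0.05 before adjustment.

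At 10 months 5 of 31 members were called against 1 month, 4 higher and 1 lower, where 41.4% of all tested genes were called, 20.6% higher and 20.8% lower. Psma2, Psmb1 and Psmb7 of the core and the assembly chaperone Psmd9 rose, and the lid subunit Psmd8 fell. Against 6 months 3 members were called, 1 higher and 2 lower, where 20.3% of all genes were called (8.56% higher, 11.7% lower). Psmd9 rose and Psmc4 and Psmd10 fell. Against 4 months 2 members were called, 1 higher and 1 lower, where 21.9% of all genes were called (10.2% higher, 11.7% lower), namely Psmd9 and Psmc1. These 3 comparisons share the 10-month arrays. When replicates 2 and 3 of 10 months were left out, 2 members (Psma2 and Psmb1) were called at 10 months against 1 month and 0 against 6 months. Over all tested genes 4121 and 1835 were then called, against 4900 and 2400 with all arrays.

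Promoters are shown for 3 of the members named above. Psma2 had the largest change of the list, Psmc1 is an ATPase gene that fell from 4 to 10 months, and Psmd9 is a chaperone that rose by 10 months. Each sequence is the 250 bases before the gene's start, 5′ to 3′ on its strand, from RefSeq on GRCm38.p6, at chr13:14612992-14613241 (Psma2), chr12:100109952-100110201 (Psmc1) and chr5:123227940-123228189 (Psmd9), all on the plus strand. Capitals mark a match to one of 3 motifs.
Psma2: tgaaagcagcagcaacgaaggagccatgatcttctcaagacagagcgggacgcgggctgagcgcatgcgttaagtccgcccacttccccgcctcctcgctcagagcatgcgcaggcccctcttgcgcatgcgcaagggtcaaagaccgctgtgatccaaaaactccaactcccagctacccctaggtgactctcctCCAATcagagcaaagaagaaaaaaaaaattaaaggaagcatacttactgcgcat
Psmc1: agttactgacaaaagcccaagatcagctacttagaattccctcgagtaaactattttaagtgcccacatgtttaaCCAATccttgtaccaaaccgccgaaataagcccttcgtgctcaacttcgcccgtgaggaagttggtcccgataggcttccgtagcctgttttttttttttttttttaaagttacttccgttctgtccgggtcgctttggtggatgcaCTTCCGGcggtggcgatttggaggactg
Psmd9: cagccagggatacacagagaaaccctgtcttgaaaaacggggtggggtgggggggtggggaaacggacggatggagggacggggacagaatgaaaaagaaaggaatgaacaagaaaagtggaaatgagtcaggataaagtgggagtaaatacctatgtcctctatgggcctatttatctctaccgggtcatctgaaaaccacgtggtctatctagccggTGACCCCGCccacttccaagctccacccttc
The Psma2 window holds a CCAAT box, which begins 54 bases before the start. The Psmc1 window holds one at 175 bases and, on the other strand, CCGGAAG, an ETS factor motif, at 28 bases. The Psmd9 window holds TGACNNNGC, the antioxidant response element bound by Nfe2l1 and Nfe2l2, at 31 bases.

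The promoter table had an entry for 26 of the 32 members, with 28 promoters in all, and none for Psmb1, Psmb2, Psmb7, Psmc3, Psmd3 and Psmd7. Both strands of the 250 bases before the start were searched, and a match may overlap another. CCGGAAG was found in 11 of the 28 member promoters (39.3%) and in 6.91% of all 32851 promoters of the same length. The genes were Psma6, Psmc1, Psmc2, Psmc3ip, Psmc6, Psmd11, Psmd12, Psmd2, Psmd4 and Psmd6. CCAAT was in 12 (42.9%, against 33.8% of all) and TGACNNNGC in 5 (17.9% against 10.2%, in Psmb5, Psmb6, Psmc6, Psmd12 and Psmd9). These shares describe letters, not bound sites.

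**Figure D2:**
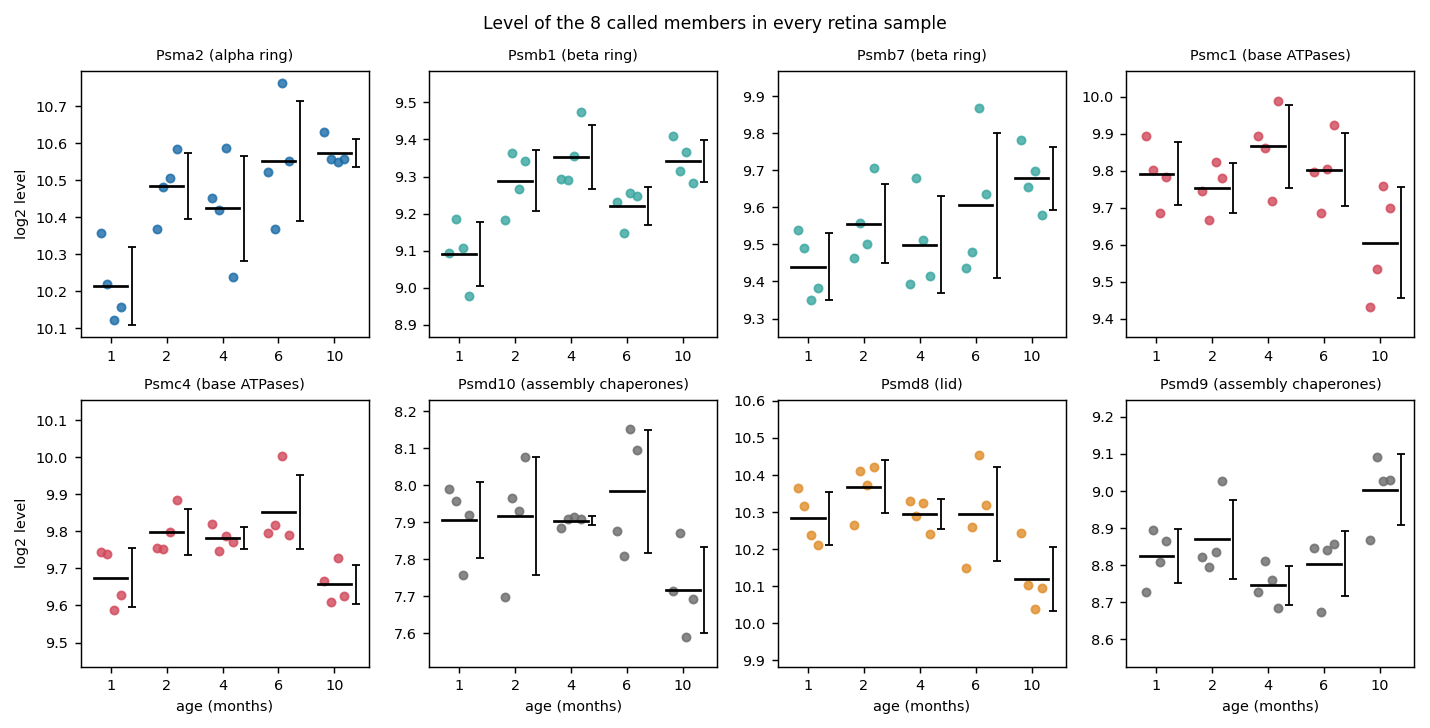
Log2 level of each called member in every retina sample at 1, 2, 4, 6 and 10 months (4 mice per age). Points are samples, lines are means and bars beside them are ± 1 SD, and all panels span the same range of log2 levels. Psma2 and Psmb1 lie lowest at 1 month, and Psmc1, Psmc4, Psmd8 and Psmd10 have their lowest mean at 10 months.

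The alpha ring forms the outer gate of the core. Psma2 was the only one of its 5 tested subunits to be called in any comparison run. Its levels were 10.12, 10.16, 10.22 and 10.36 at 1 month, 10.37, 10.48, 10.51 and 10.58 at 2 months, and 10.24, 10.42, 10.45 and 10.59 at 4 months. They were 10.37, 10.52, 10.55 and 10.76 at 6 months and 10.55, 10.56, 10.56 and 10.63 at 10 months. Every 2-, 6- and 10-month sample lay above every 1-month sample, while 1 of the 4-month samples lay within their range. The means were 10.21 ± 0.10, 10.48 ± 0.09, 10.42 ± 0.14, 10.55 ± 0.16 and 10.57 ± 0.04 (SD, n = 4 each) in order of age.

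Psma2 rose by 0.27 ± 0.08 (SE) at 2 months (adjusted p = 0.0431 by limma with Benjamini-Hochberg adjustment), by 0.34 ± 0.08 at 6 months (0.00736) and by 0.36 ± 0.08 at 10 months (0.0015). At 4 months the difference was 0.21 (adjusted p = 0.0884) and was not called. Both of its 2 probe sets were higher at 10 months than at 1 month. The 2-month call was lost without any 1 of the 1-month replicates 2, 3 and 4 or the 2-month replicates 2, 3 and 4 (difference 0.24 to 0.27, adjusted p 0.0909 to 0.148). With a covariate for Y-linked level the 2-month difference was 0.31 (adjusted p = 0.311) and was not called. All 2-month arrays were low in Y-linked level and all 1-month arrays high, so that fit can hardly separate age from it. Over all tested genes the fit called 125 at 2 months, against 1008 without the covariate. The brightest of the probe sets alone gave 0.21 at 2 months (adjusted p = 0.13) and 0.18 at 6 months (adjusted p = 0.128). The 10-month call held in every alternative and without each array in turn, with differences of 0.32 to 0.41. Without replicates 2 and 3 of 10 months it was 0.38 (adjusted p = 0.00909).

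The other 4 alpha subunits were not called at any age. At 10 months against 1 month Psma6 differed by 0.14 (95% interval -0.01 to 0.28), Psma3, read by 1 probe set, by 0.09 (-0.19 to 0.36), Psma7 by 0.07 (-0.10 to 0.25) and Psma1 by -0.04 (-0.19 to 0.12). The median over the 5 alpha subunits was 0.09, beside 0.04 over all tested genes.

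The beta ring holds the catalytic sites. All 6 tested subunits had a positive difference at 10 months against 1 month, beside 19 of 31 members and 6559 of 11836 tested genes. The median of the 6 was 0.15, and 5 of the 6 had their lowest age mean at 1 month. Over all 31 tested members 11 had their lowest mean at 1 month. Only Psmb1 and Psmb7 were called at 10 months, both higher, where 20.6% of all tested genes were called higher.

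Psmb1, a beta subunit without a catalytic site of its own, was read at 8.98, 9.09, 9.11 and 9.18 at 1 month. It stood at 9.18, 9.27, 9.34 and 9.36 at 2 months, at 9.29, 9.29, 9.36 and 9.47 at 4 months, at 9.15, 9.23, 9.25 and 9.25 at 6 months, and at 9.28, 9.31, 9.37 and 9.41 at 10 months. All 4- and 10-month samples lay above all 1-month samples, whereas the 2- and 6-month samples overlapped them. Its means were 9.09 ± 0.09, 9.29 ± 0.08, 9.35 ± 0.09, 9.22 ± 0.05 and 9.34 ± 0.06 (SD, n = 4 each) from 1 to 10 months.

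Psmb1 rose by 0.20 ± 0.06 (SE) at 2 months (adjusted p = 0.0376, limma with Benjamini-Hochberg adjustment), by 0.26 ± 0.06 at 4 months (0.0043) and by 0.25 ± 0.06 at 10 months (0.00168). At 6 months the difference was 0.13 (adjusted p = 0.136). Psmb1 was the 1 member called at 4 months, where 3 of its 4 probe sets were higher, and it had the largest positive difference of the list there. Its calls at 4 and 10 months held in every alternative and without each array in turn, with differences of 0.22 to 0.34 and 0.21 to 0.33. The 2-month call was lost without any 1 of 1-month replicates 1, 3 and 4 or 2-month replicates 2, 3 and 4 (0.16 to 0.21, adjusted p 0.0674 to 0.123). With a covariate for Y-linked level the 2-month difference was 0.16 (adjusted p = 0.455), in the fit that can hardly separate age from that level. With the brightest probe set alone it was 0.25 (adjusted p = 0.181).

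Psmb7 carries the trypsin-like site. Its means were 9.44 ± 0.09, 9.56 ± 0.11, 9.50 ± 0.13, 9.61 ± 0.20 and 9.68 ± 0.08 (SD, n = 4 each) from 1 to 10 months. The 10-month samples (9.58, 9.66, 9.70 and 9.78) all lay above the 1-month samples (9.35, 9.38, 9.49 and 9.54). Psmb7 rose by 0.24 ± 0.09 (SE) between these ages (adjusted p = 0.0363, limma with Benjamini-Hochberg adjustment), with 6 of 6 probe sets higher. The call was lost without any 1 of 1-month replicates 3 and 4 or 10-month replicates 1, 2 and 3 (0.20 to 0.25, adjusted p 0.0546 to 0.102). Without 10-month replicates 2 and 3 together the difference was 0.24 (adjusted p = 0.115), and the brightest probe set alone gave 0.13 (adjusted p = 0.285).

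The other catalytic subunits were not called. Psmb6, with the caspase-like site, differed by 0.15 at 10 months (95% interval 0.01 to 0.30, adjusted p = 0.0773), and Psmb5, with the chymotrypsin-like site, by 0.08 (-0.10 to 0.26). Psmb4 differed by 0.14 (-0.02 to 0.30). Psmb2 had the most negative difference of the list at 4 months, -0.15 (-0.35 to 0.05, adjusted p = 0.312). Its levels were 8.54, 8.64, 8.68 and 8.73 at 1 month, 8.60, 8.67, 8.68 and 8.69 at 2 months, and 8.16, 8.56, 8.57 and 8.69 at 4 months. They were 8.51, 8.53, 8.59 and 8.74 at 6 months and 8.50, 8.71, 8.73 and 8.86 at 10 months. The low value at 4 months was replicate 4, the array with the lowest mean correlation, and the ages overlapped throughout.

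Among the base ATPases the lowest levels were seen late. At 10 months 4 of the 6 had the lowest of their 5 age means, as did 9 of all 31 tested members. Against 6 months 5 of 6 differences were negative, beside 15 of 31 members and 5279 of 11836 tested genes. The median was -0.19, beside 0.03 over all tested genes. Of the 6 ATPases 1 was called, lower, where 11.7% of all genes were called lower. Against 1 month 4 of 6 differences were negative, beside 12 of 31 members and 5277 of 11836 genes. Their median was -0.07 and 0 were called by limma, with 1 at an unadjusted p under 0.05. Of all tested genes 41.4% were called there, 20.8% of them lower than at 1 month, and 5820 of 11836 had an unadjusted p under 0.05.

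Psmc4, a subunit of the ATPase ring, was read at 9.59, 9.63, 9.74 and 9.74 at 1 month. It stood at 9.75, 9.76, 9.80 and 9.88 at 2 months, at 9.75, 9.77, 9.79 and 9.82 at 4 months, at 9.79, 9.80, 9.82 and 10.00 at 6 months, and at 9.61, 9.63, 9.66 and 9.73 at 10 months. The 6-month samples lay above both the 1-month and the 10-month samples, and those outer ages overlapped. Its means were 9.67 ± 0.08, 9.80 ± 0.06, 9.78 ± 0.03, 9.85 ± 0.10 and 9.66 ± 0.05 (SD, n = 4 each) from 1 to 10 months.

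Psmc4 rose by 0.18 ± 0.06 (SE) from 1 to 6 months (adjusted p = 0.0336) and fell by 0.19 ± 0.06 from 6 to 10 months (adjusted p = 0.0164, both limma with Benjamini-Hochberg adjustment). For the fall 11 of 11 probe sets had the same sign. Without 6-month replicate 3, whose level of 10.00 stood apart from 9.79 to 9.82 in the others, the rise was 0.13 (adjusted p = 0.131) and the fall -0.14 (adjusted p = 0.0666), and neither was called. The rise was also lost without 1-month replicate 3 or 4 or 6-month replicate 2. It was lost too with the mean of the probe sets and with the brightest one alone (0.22, adjusted p = 0.0594). With 10-month replicates 2 and 3 left out the fall was -0.21 (adjusted p = 0.05, not under the threshold). At 10 months against 1 month the difference was -0.02 (95% interval -0.13 to 0.10).

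Psmc1 had means of 9.79 ± 0.09, 9.75 ± 0.07, 9.86 ± 0.11, 9.80 ± 0.10 and 9.61 ± 0.15 (SD, n = 4 each) from 1 to 10 months. The 10-month samples were 9.43, 9.54, 9.70 and 9.76, and the upper values overlapped the 4-month samples of 9.72, 9.86, 9.89 and 9.99. Psmc1 fell by 0.26 ± 0.08 (SE) from 4 to 10 months (adjusted p = 0.0188, limma with Benjamini-Hochberg adjustment), with 3 of 3 probe sets lower. The call was lost without 4-month replicate 4 or 10-month replicate 1 or 2 (differences of -0.24 to -0.20, adjusted p 0.0518 to 0.0716). It held without replicates 2 and 3 of 10 months together (-0.30, adjusted p = 0.0276), while the brightest probe set alone gave -0.11 (adjusted p = 0.576).

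The other ATPases were not called. From 6 to 10 months Psmc5 differed by -0.19 (95% interval -0.34 to -0.05, adjusted p = 0.0582), Psmc6 by -0.20 (-0.42 to 0.03) and Psmc3 by -0.12 (-0.26 to 0.02). All 16 probe sets of Psmc6 and 11 of 13 of Psmc5 were lower at 10 months. Psmc2 was the exception in sign, at 0.03 (-0.12 to 0.19).

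**Figure D3:**
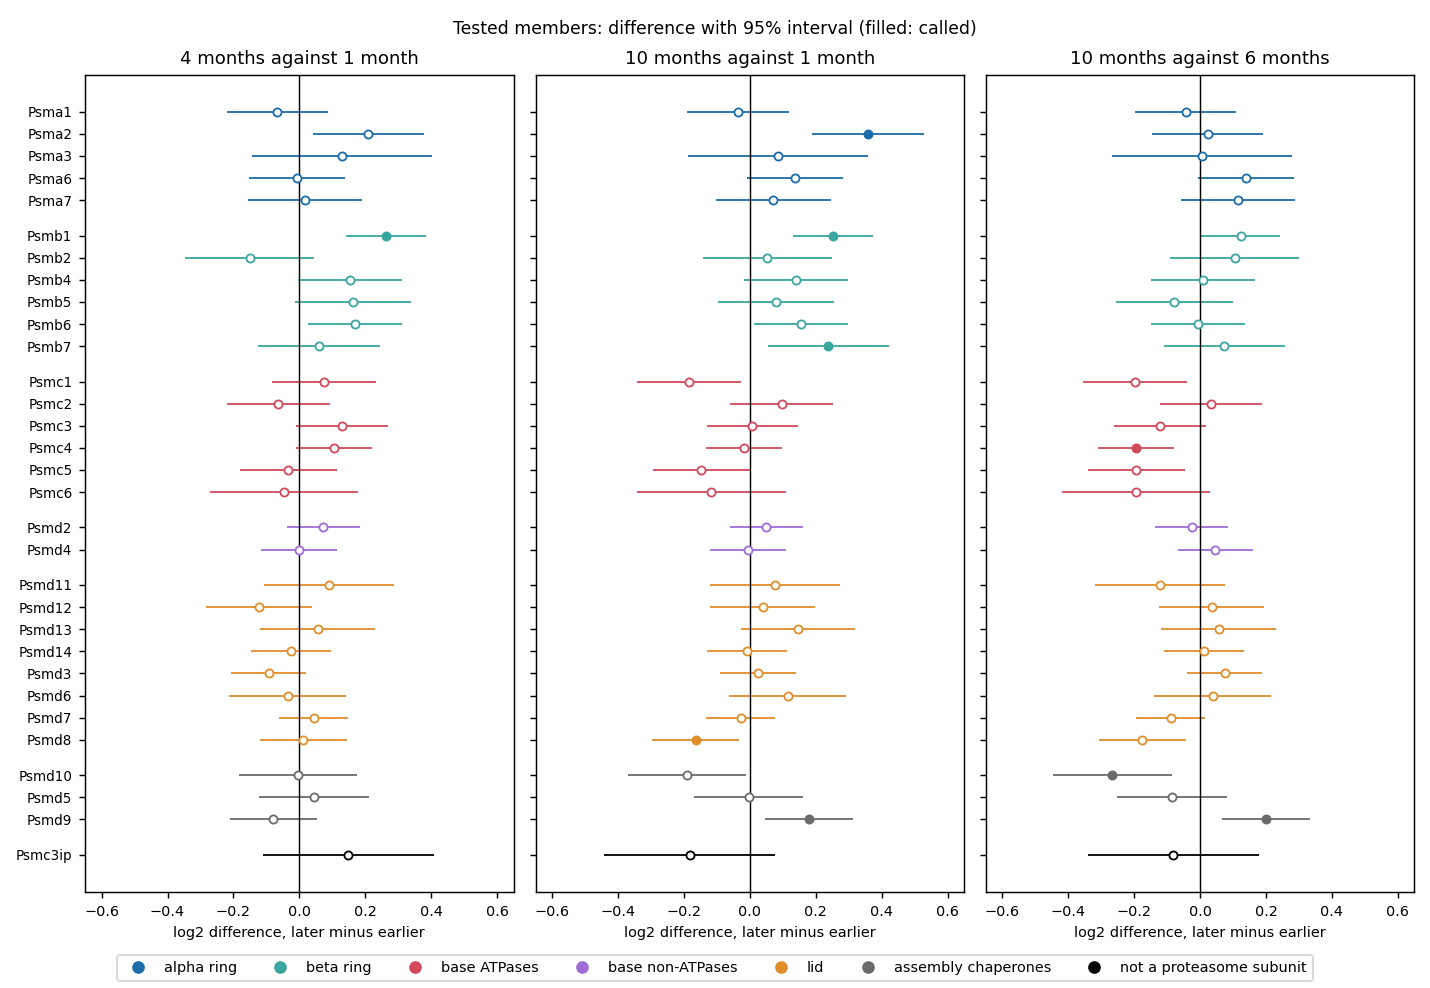
Log2 difference of each tested member at 4 months against 1 month, 10 months against 1 month and 10 months against 6 months, with its 95% interval (points and lines, coloured by role; filled points were called by limma). At 10 months against 1 month the 6 beta ring subunits lie right of zero, as do 19 of all 31 members. At 10 against 6 months 5 of 6 base ATPases lie left of it, as do 15 of all 31 members. All intervals lie within 1.5-fold.

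The mean over the 11 tested core subunits and the mean over the 6 base ATPases were farthest apart at 10 months. On each array the core mean minus the ATPase mean, both set to 0 at the 1-month mean, was 0.14, 0.18, 0.22 and 0.26 at 10 months. At the other ages it lay between -0.05 and 0.09 on all 16 arrays, so no 10-month array overlapped any other. The difference between 10 months and 1 month was 0.20, with an SD between mice of 0.05 (n = 4 per age). It lay between 0.18 and 0.22 when each array of these ages was left out, was 0.20 without 10-month replicates 2 and 3, and lay between 0.19 and 0.21 with the other summaries and normalizations tried. This contrast of roles was picked after the values of the members had been seen, so it carries no test. The lack of overlap and the ranges above describe the picked contrast and are no support for it. For the whole regulatory particle, 16 tested subunits, the mean relative to 1 month was -0.01 ± 0.02 (SD) at 10 months and 0.04 ± 0.05 at 2 months. The core mean itself was 0.14 ± 0.06 (SD) above its 1-month mean at 10 months and 0.12 ± 0.06 above it at 2 months. The ATPase mean was 0.08 ± 0.11 above at 6 months and 0.06 ± 0.04 below at 10 months.

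**Figure D4:**
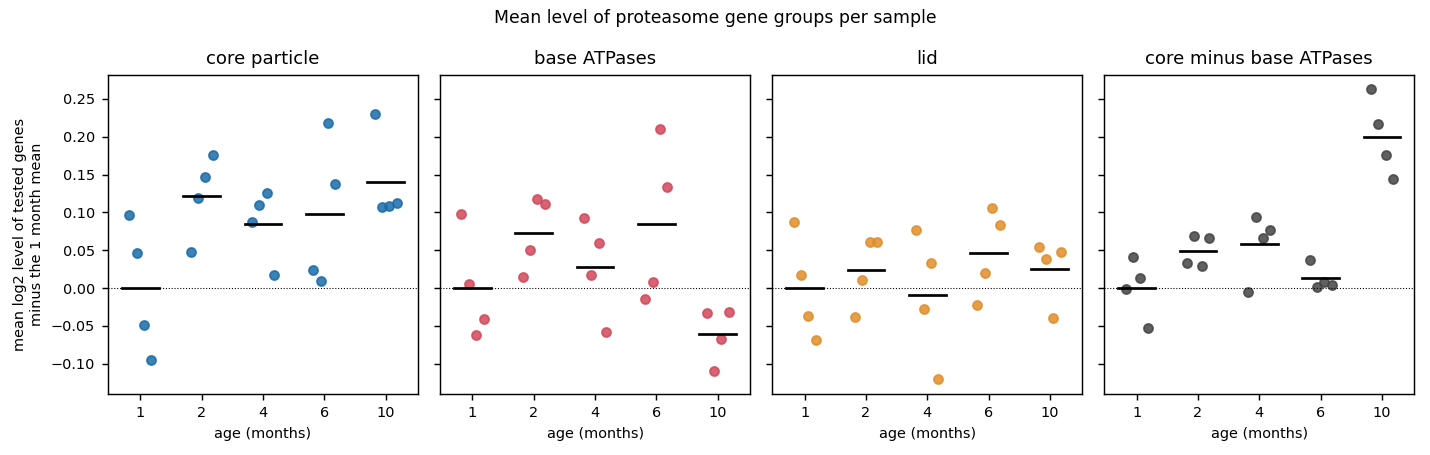
Mean log2 level of the 11 tested core subunits, the 6 base ATPases and the 8 Psmd lid subunits, and the core mean minus the ATPase mean, in every sample at 5 ages, each relative to its own mean at 1 month (points are samples, lines are age means). In the right panel the 10-month samples lie at 0.14 to 0.26 and the samples of the other ages at -0.05 to 0.09. That contrast was picked after the values had been seen.

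The tested non-ATPase subunits of the base, which bind ubiquitin and its carriers, were not called in any comparison run. Psmd2 was read at 10.34, 10.46, 10.52 and 10.56 at 1 month, 10.47, 10.50, 10.53 and 10.56 at 2 months and 10.47, 10.51, 10.54 and 10.65 at 4 months. It was read at 10.51, 10.52, 10.56 and 10.60 at 6 months and at 10.44, 10.51, 10.56 and 10.57 at 10 months. All 5 ages overlapped, and the 10-month difference from 1 month was 0.05 (95% interval -0.06 to 0.16). Psmd4, a ubiquitin receptor, had the narrowest range of age means of the 31 tested members, 0.05, and differed by -0.01 (-0.12 to 0.11) between these ages.

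In the lid only Psmd8 was called, in the F test and at 10 months against 1 month. Its levels were 10.21, 10.24, 10.32 and 10.37 at 1 month, 10.27, 10.37, 10.41 and 10.42 at 2 months and 10.24, 10.29, 10.32 and 10.33 at 4 months. They were 10.15, 10.26, 10.32 and 10.45 at 6 months and 10.04, 10.09, 10.10 and 10.24 at 10 months. In 3 of the 4 samples at 10 months Psmd8 was lower than in every sample of the other ages, and the highest one overlapped them. The means were 10.28 ± 0.07, 10.37 ± 0.07, 10.29 ± 0.04, 10.30 ± 0.13 and 10.12 ± 0.09 (SD, n = 4 each).

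Psmd8 fell by 0.16 ± 0.06 (SE) from 1 to 10 months (adjusted p = 0.045, limma with Benjamini-Hochberg adjustment), with 9 of 11 probe sets lower. The call was lost without 1-month replicate 1 or 2 or 10-month replicate 2, 3 or 4 (differences of -0.16 to -0.14, adjusted p 0.0844 to 0.13). Without 10-month replicates 2 and 3 together the difference was -0.11 (adjusted p = 0.284). Psmd8 was also not called with the mean of the probe sets or with the brightest one alone (-0.16, adjusted p = 0.155). Of the other 7 lid subunits 5 had positive differences at 10 months, from 0.02 to 0.15. The largest was Psmd13, at 0.15 (95% interval -0.03 to 0.32). The deubiquitinase Psmd14 differed by -0.01 (-0.13 to 0.11), and the lid's median was 0.03.

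The 3 base chaperones, which hold ATPase modules until the ring is assembled and leave the finished particle, differed in direction late. Psmd9 binds Psmc3 and Psmc6 as they assemble. Its levels were 8.73, 8.81, 8.87 and 8.89 at 1 month, 8.80, 8.82, 8.83 and 9.03 at 2 months and 8.68, 8.73, 8.76 and 8.81 at 4 months. They were 8.67, 8.84, 8.85 and 8.86 at 6 months and 8.87, 9.03, 9.03 and 9.09 at 10 months. All 10-month samples lay above all 4- and 6-month samples, and their lowest overlapped the 1-month samples. The means were 8.82 ± 0.07, 8.87 ± 0.11, 8.75 ± 0.05, 8.80 ± 0.09 and 9.00 ± 0.09 (SD, n = 4 each).

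Psmd9 at 10 months had risen by 0.18 ± 0.06 (SE) from 1 month (adjusted p = 0.0294), by 0.26 ± 0.06 from 4 months (0.00673) and by 0.20 ± 0.06 from 6 months (0.0314, all limma with Benjamini-Hochberg adjustment), and 5 of 5 probe sets agreed in sign in each. The 10-month arrays with low Y-linked levels, replicates 2 and 3, were among the 3 highest. Without both the differences were 0.13 (adjusted p = 0.237), 0.20 (0.0788) and 0.15 (0.246), and none was called. Each of these calls was also lost with the mean of the probe sets and with the brightest one alone. The brightest gave 0.14 (adjusted p = 0.241), 0.18 (0.243) and 0.19 (0.203) in the same order. Against 1 month the call was also lost without 1-month replicate 1 or 3 or 10-month replicate 2, 3 or 4 (0.15 to 0.17, adjusted p 0.0576 to 0.0975). Against 6 months it was lost without 6-month replicate 2, the low sample of that age, or 10-month replicate 2, 3 or 4 (0.16 to 0.19, adjusted p 0.0641 to 0.109).

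Psmd10, also known as gankyrin, binds Psmc4 during assembly. Its levels were 7.76, 7.92, 7.96 and 7.99 at 1 month, 7.70, 7.93, 7.96 and 8.08 at 2 months and 7.89, 7.91, 7.91 and 7.91 at 4 months. They were 7.81, 7.88, 8.10 and 8.15 at 6 months and 7.59, 7.69, 7.72 and 7.87 at 10 months. The 10-month samples lay below all 4-month samples and overlapped those of 1, 2 and 6 months. The means were 7.91 ± 0.10, 7.92 ± 0.16, 7.90 ± 0.01, 7.98 ± 0.17 and 7.72 ± 0.12 (SD, n = 4 each).

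Psmd10 fell by 0.27 ± 0.09 (SE) from 6 to 10 months (adjusted p = 0.0335, limma with Benjamini-Hochberg adjustment), with 8 of 8 probe sets lower. This was the most negative difference of the list in that comparison. The brightest probe set alone gave -0.22 (adjusted p = 0.152). Without 6-month replicate 3 or 4 or 10-month replicate 1, 3 or 4 the call was lost (differences of -0.27 to -0.21, adjusted p 0.0605 to 0.12), and without 10-month replicates 2 and 3 together it was -0.28 (adjusted p = 0.076). Against 1 month its difference of -0.19 (95% interval -0.37 to -0.01, adjusted p = 0.0837) was the most negative of the list and was not called. Psmd5 differed by -0.003 (-0.17 to 0.16) between 1 and 10 months.

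Psmc3ip, found by name alone, differed by -0.18 at 10 months against 1 month (-0.44 to 0.08) and was not called in any comparison. Psmb11 had means of 4.84 to 5.06 over the 5 ages and was not tested.

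Other genes of the pathway assemble the particle, switch it or bring it substrates. Of 41 listed genes of the pathway outside the 32 members, 31 were tested, and 9 were called higher and 6 lower at 10 months against 1 month, where 41.4% of all tested genes were called. At 10 months against 6 months 2 were called higher and 6 lower (all genes, 20.3%). At 2, 4 and 6 months against 1 month 1, 2 and 4 were called, all higher, where 3.3%, 6.9% and 7.89% of all tested genes were called higher.

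Of the chaperones that build the core, 4 of 5 listed were tested and 2 were called at 10 months, both lower (all genes, 20.8% lower). Psmg1 and Psmg2 form the dimer on which the alpha ring assembles. Psmg1 was read at 8.77, 8.83, 8.92 and 8.95 at 1 month, at 8.80, 8.81, 8.86 and 8.93 at 6 months and at 8.29, 8.33, 8.35 and 8.54 at 10 months. Every 10-month sample lay below every sample of these other ages. Psmg1 fell by 0.49 ± 0.06 (SE) from 1 month (adjusted p = 1.57e-06) and by 0.48 ± 0.06 from 6 months (1.02e-05, both limma with Benjamini-Hochberg adjustment), and 7 of 7 probe sets were lower than at 6 months.

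Psmg2 was read at 7.49, 7.58, 7.63 and 7.91 at 1 month and at 6.90, 6.96, 7.12 and 7.23 at 10 months, with no overlap. It fell by 0.60 ± 0.11 (SE) (adjusted p = 0.000332, limma with Benjamini-Hochberg adjustment), with 9 of 10 probe sets lower. Its direction depended on the probe sets, since the brightest one alone gave 0.31 (adjusted p = 0.293). Against 6 months Psmg2 fell by 0.48 ± 0.11 (adjusted p = 0.0049), with 8 of 10 probe sets lower and 0.10 for the brightest (adjusted p = 0.809). The maturation factor Pomp differed by 0.08 (95% interval -0.04 to 0.21) and Psmg3 by -0.04 (-0.34 to 0.27) from 1 to 10 months.

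The inducible subunits replace catalytic ones of the core in immune cells and under interferon. Of these 3 genes Psmb8 was called against 1 month at every later age, in comparisons that share the 1-month arrays. Its levels were 5.84, 5.86, 5.95 and 6.05 at 1 month and 6.33, 6.35, 6.57 and 6.59 at 2 months. They were 6.18, 6.33, 6.52 and 6.87 at 4 months, 6.25, 6.35, 6.47 and 6.50 at 6 months and 6.28, 6.32, 6.34 and 6.38 at 10 months. No sample of a later age reached down to the 1-month samples.

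Psmb8 rose by 0.53 ± 0.11 (SE) at 2 months (adjusted p = 0.0047), by 0.55 ± 0.11 at 4 months (0.0021), by 0.46 ± 0.11 at 6 months (0.00638) and by 0.40 ± 0.11 at 10 months (0.00606, all limma with Benjamini-Hochberg adjustment). With a covariate for Y-linked level the differences were 0.39 at 2 months (adjusted p = 0.339) and 0.32 at 10 months (0.123), and neither was called. At 2 months that fit can hardly separate age from Y-linked level, as for Psma2. Psmb9 rose by 0.32 ± 0.11 at 10 months (adjusted p = 0.0213) and was not called at the other ages. Its call was lost without 1-month replicate 1 or 2 or 10-month replicate 2 or 3 (0.25 to 0.30, adjusted p 0.0534 to 0.0777). Without 10-month replicates 2 and 3 together the difference was 0.18 (adjusted p = 0.276), and with the Y-linked covariate 0.14 (0.492). The brightest probe set of Psmb9 alone gave 0.23 (adjusted p = 0.37). Psmb10 differed by 0.16 at 10 months (95% interval -0.08 to 0.40). The mean of the 11 microglia and macrophage markers, cells that use these subunits, was 6.98 to 7.09 at 1 month, 7.34 to 7.53 at 2 months, 7.23 to 7.29 at 4 months, 7.03 to 7.22 at 6 months and 6.83 to 7.07 at 10 months. Their part in the Psmb8 levels was not tested.

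Of 5 activators and inhibitors that dock on the core in place of the regulatory particle, Psmf1, an inhibitor, changed most. It was read at 8.85, 8.94, 9.02 and 9.04 at 1 month, at 8.92, 9.02, 9.13 and 9.21 at 6 months and at 9.24, 9.29, 9.37 and 9.39 at 10 months. The 10-month samples lay above the others. Psmf1 rose by 0.36 ± 0.06 (SE) from 1 month (adjusted p = 8.53e-05) and by 0.25 ± 0.06 from 6 months (0.00468, both limma with Benjamini-Hochberg adjustment), with 9 of 9 probe sets higher in each. Psme1, a subunit of the interferon-induced activator ring, rose by 0.18 ± 0.07 from 1 month (adjusted p = 0.048). That call was lost without 1-month replicate 1 or 4 or 10-month replicate 1, 2 or 3 (0.14 to 0.19, adjusted p 0.0631 to 0.152). Without 10-month replicates 2 and 3 together the difference was 0.10 (adjusted p = 0.366), and with the Y-linked covariate 0.07 (0.636). The call of Psme1 was lost in 8 of 12 alternatives. Psme4, a single-chain activator, differed by 0.09 (95% interval -0.12 to 0.29), and Psme2, the partner of Psme1, read by 1 probe set, by 0.02 (-0.30 to 0.34).

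Nfe2l1 is the transcription factor best known for inducing proteasome genes, and Ngly1 removes the sugars that hold it inactive. Of this list of 4 genes 3 were tested. Nfe2l1 differed by 0.10 at 10 months (95% interval -0.01 to 0.22) and was not called. Ngly1 fell by 0.32 ± 0.09 (SE) (adjusted p = 0.00851) and Nfe2l2 by 0.18 ± 0.06 (0.0266, both limma with Benjamini-Hochberg adjustment). Without 10-month replicates 2 and 3 these were -0.27 (adjusted p = 0.0806) and -0.19 (0.0698). For Nfe2l2 the call was also lost without 1-month replicate 1 or 4 or 10-month replicate 1 or 2 (-0.18 to -0.12, adjusted p 0.0507 to 0.11).

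Shuttle proteins carry tagged substrates to the particle, and they were listed together with the unfoldase Vcp and its cofactors. Of 9 tested genes of this list 5 were called higher and 1 lower at 10 months against 1 month. Over all tested genes 20.6% were called higher and 20.8% lower. Sqstm1, which links tagged proteins to autophagy, rose by 0.37 ± 0.06 (SE) (adjusted p = 2.96e-05), and Ufd1, a cofactor of the unfoldase Vcp, by 0.37 ± 0.07 (0.00023, both limma with Benjamini-Hochberg adjustment). Ubqln4 fell by 0.46 ± 0.05 (adjusted p = 5.25e-07, limma), with 13 of 13 probe sets lower, while its paralog Ubqln2 rose by 0.32 ± 0.06 (0.000178). Of 6 genes for ubiquitin and its activation only Uba6 was tested. Uba6, an activating enzyme for ubiquitin, fell by 0.79 ± 0.14 (adjusted p = 0.000125, limma), with 34 of 34 probe sets lower. Of 6 tested genes for other proteins in or bound to the regulatory particle, limma called 0 at 10 months against 1 month. There was 1 at an unadjusted p under 0.05 (Txnl1, 0.21). Over all tested genes 41.4% were called in that comparison, and 5820 of 11836 had an unadjusted p under 0.05. Sem1, a small subunit of the lid that the choice by name left out, differed by 0.19 (95% interval -0.02 to 0.40). Usp14, which removes ubiquitin from bound substrates, differed by 0.15 (-0.10 to 0.39). The ligase Ube3c fell by 0.20 ± 0.06 from 6 to 10 months (adjusted p = 0.0168). Its call was lost without 6-month replicate 4 or 10-month replicate 1 (-0.18 to -0.17, adjusted p 0.0505 to 0.0532).

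**Figure D5:**
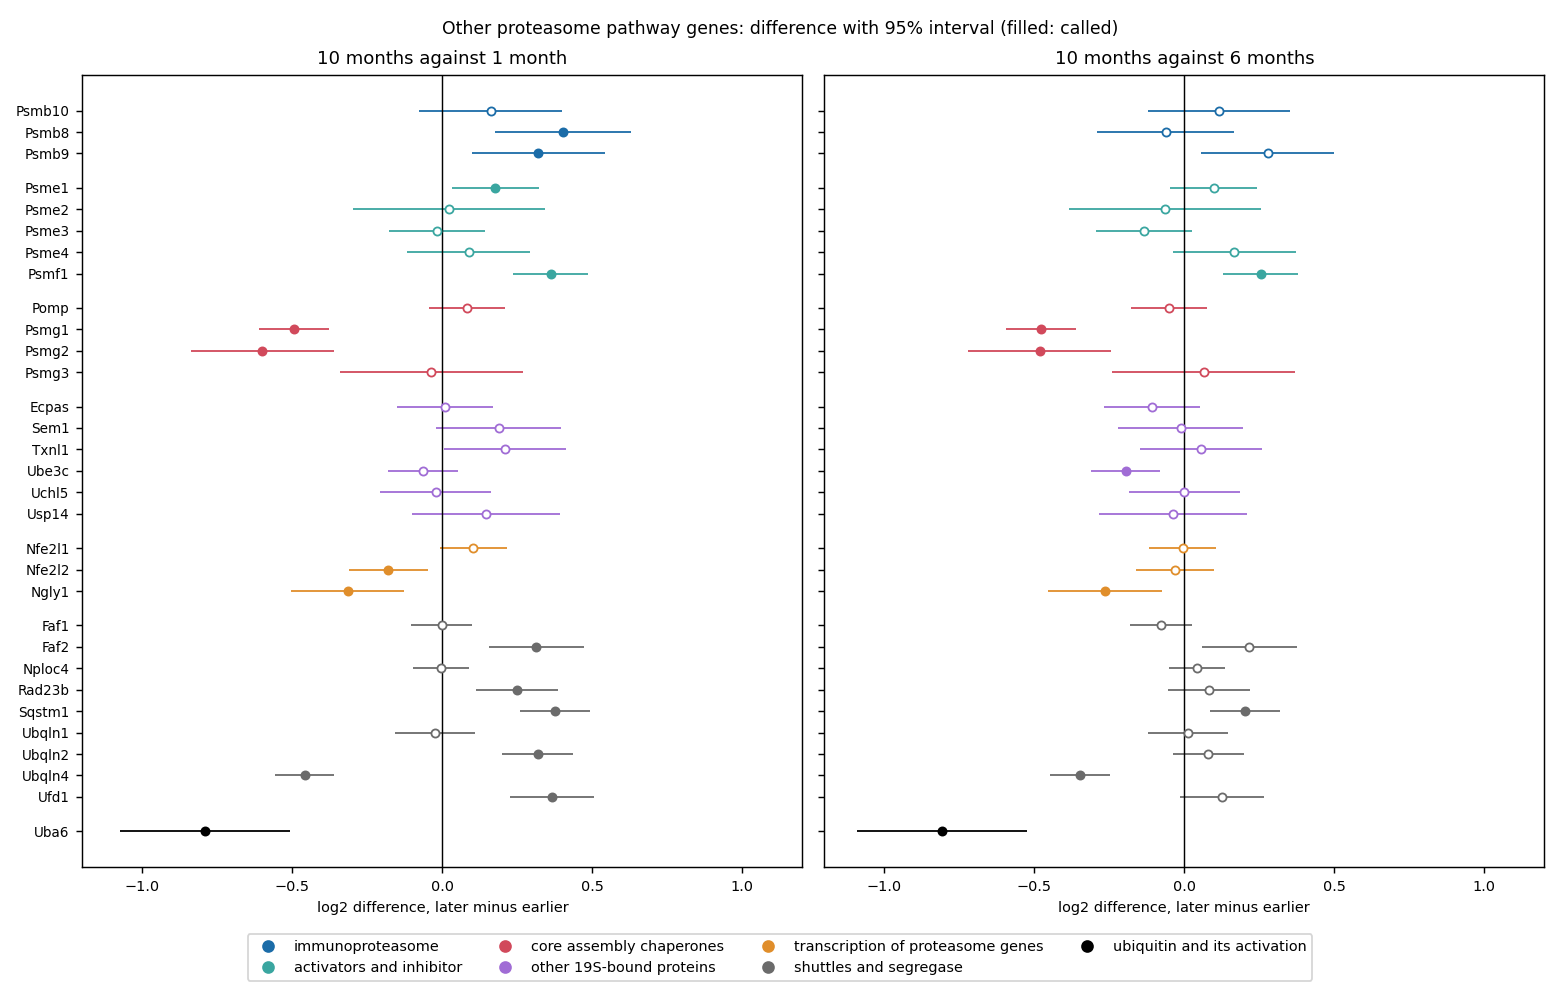
Log2 difference of the 31 tested genes of the pathway outside the members chosen by name, at 10 months against 1 month and against 6 months. Points and lines are differences with 95% intervals, coloured by list, and filled points were called by limma. Psmg1, Psmg2, Ubqln4 and Uba6 lie left of zero in both panels and Psmf1 and Sqstm1 right of it.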

How the data were processed

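The authors deposited log2 levels for single probe sets of an exon array, 20 arrays in all, processed with RMA per the submitters' processing notes, and the array's build is not given in the sources used here. Of 194293 probe sets 179496 had 1 gene symbol. Probe sets with several symbols (1328) or none (13469) were left out, and 2039 symbols were updated through the RefSeq table of GRCm38.p6. Values were summarised per gene by median polish. The lowest 25% of genes by mean level (log2 under 5.61) were left out, which left 11836 of 15781.

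One limma fit (3.58.1, R 4.3.3) of all arrays estimated a mean for each age with 15 residual degrees of freedom. Its two-sided p-values, for 8 comparisons and an F test, were adjusted by Benjamini-Hochberg and called under 0.05. For arrays the number, 4 per age, limits the precision. Replicates are separate mice.

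The members and gene lists were chosen with earlier results of these data known. The lists are not independent evidence. Values of every array are given for the member of each role with the smallest F-test p-value and for the largest rise and fall at 4 and 10 months against 1 month and 10 against 6 months. Means are given for every called member, and for each other pathway list up to 3 genes with the largest changes, called genes first; Psme2, Psmg3 and Ubqln2 fall outside that rule and were chosen after their values were seen.

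Alternatives were the mean or the brightest probe set, no filter or a filter of 50%, quantile normalization, median centring, trend and robust eBayes, array weights, a Y-linked covariate, a replicate block, fits on 8 arrays, and leaving out arrays. The script was tested on simulated data. Replicate numbers were not stated to pair the mice, and the main fit did not use them as pairs. Figures were drawn with matplotlib 3.10.9.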

Additional observations from a re-analysis of the deposited data

Results flagged for a closer look

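In the 40 groups of 4 samples formed by the 8 called members and 5 ages, 4 groups held a sample far from the other 3. Chance gives about 1 such group in 20. Psma2 at 10 months was 10.63 in replicate 1 and 10.55 to 10.56 in the others. Psmc4 at 6 months was 10.00 in replicate 3 and 9.79 to 9.82 in the others, and both of its calls were lost without that sample. Psmd9 at 2 months was 9.03 in replicate 4 against 8.80 to 8.83, and at 6 months 8.67 in replicate 2 against 8.84 to 8.86. The call of Psmd9 from 6 to 10 months was lost without the latter sample.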

How the results depend on the processing

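The calls of Psmb1 at 4 and 10 months and of Psma2 at 10 months against 1 month held in every alternative run, and the rise of Psma2 at 6 months was lost with the brightest probe set only. In what follows counts are called members, then in parentheses called genes of all tested where that count moved by over 1.5 times. The brightest probe set gave 2 in the F test (2416), 0 at 2 months against 1 month (344), 1 at 6 months (953) and 0 at 10 against 4 months (1077), and turned Psmg2 to 0.31 at 10 against 1 month and 0.0987 at 10 against 6 months. The mean of the probe sets gave 1 at 6 months. Without a filter there were 0, 1 and 3 at 2, 6 and 10 months against 1 month, and with a filter of 50% there were 6 at 10 against 6 months. Quantile normalization gave 1 at 2 months, 2 at 4 months, 5 at 10 against 6 and 4 at 10 against 4 months. Array weights gave 3 at 4 months (3022), and trend and robust eBayes 5 at 10 against 6 months. With a replicate block, for numbers that the labels share across ages, the F test called 3 and the comparisons of 2, 6 and 10 months with 1 month 0, 1 and 3. The deviations of same-numbered arrays correlated above 0.1 in 10 of 40 pairs (-0.574 to 0.563), and 3 of 20 arrays were closest to their own number. With a covariate for the Y-linked level there were 0 at 2 months (125), 2 at 10 months and 0 at 10 against 6 months; without 10-month replicates 2 and 3 there were 2 at 10 months and 0 at 10 against 6 months. Fits on only the 8 arrays compared gave 1, 1 and 3 at 2, 6 and 10 months against 1 month, 0 at 10 against 6 and 1 at 10 against 4 months (1100). Leaving out 1 array at a time gave 2 to 6 in the F test, 0 to 2 at 2 months, 1 to 2 at 4 and at 6 months, 3 to 6 at 10 months, 0 at 4 against 2 and at 6 against 4 months, 1 to 5 at 10 against 6 and 1 to 4 at 10 against 4 months. The core minus ATPase value lay between 0.179 and 0.219 in the same way. The cause of these changes was not tested. The number of arrays, 4 per age, limits the precision.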
